A study of Arabidopsis thaliana with 6 samples.

Results

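The late embryogenesis abundant (LEA) genes of Arabidopsis thaliana, among them the dehydrins, the EM genes and the seed maturation proteins, were followed in pollen carrying the paps1-3 allele and in wild-type pollen. They are 50 of the 33602 genes counted, taken by gene identifier from the annotated family. The family was singled out because AT5G53820 and AT4G13230 had stood among the largest increases in these same libraries. The family was thus selected on the counts of the very contrast described. All values comparing paps1-3 with wild type are therefore a description of the members, with no p-value attached and nothing rested on them.

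LEA proteins are small, very hydrophilic and mostly unfolded in water, and they accumulate when cells dry out. They are best known from the last stage of seed maturation, where abscisic acid and seed transcription factors switch their genes on, and dehydrins are also induced by cold, drought and salt. Pollen of Arabidopsis also dries before it is shed, and some LEA genes are expressed in it rather than in seeds.

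Pollen of Col plants, with the genotype PAPS1 pLat52::RFP / paps1-3 in the labels, was flow sorted by red fluorescence into a paps1-3 and a wild-type fraction. Lat52 is a pollen promoter, so the fluorescence marks grains that inherited the tagged PAPS1 chromosome if the label is read as written. All 6 libraries thus share the same kind of parent plant, and the labels state no sort gates, purities or plant age. There were 3 libraries of each genotype, lettered A to C, and nothing in the labels says that they came from separate plants, so their spread may be technical. In bulk samples of this kind, fewer cells of a type and less RNA per cell cannot be told apart.

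The paps1-3 libraries A, B and C held 36697737, 41176647 and 19861313 counts in genes, and the wild-type libraries 31909683, 32755496 and 37685541. PAPS1 (AT1G17980), which encodes a nuclear poly(A) polymerase and is the gene altered here, had 18, 9 and 3 counts in the paps1-3 libraries and 32, 25 and 20 in wild type, too few to check the labels. Summed over 13 markers of mature pollen, the level was 23679 to 27183 counts scaled to a library size of 1e6 (CPM) in paps1-3 and 69550 to 82828 in wild type on the TMM scale, and 37902 to 40232 against 46749 to 50702 by library totals, so pollen transcripts were abundant in both. Single markers differed: 9 of the 13 were called lower and 3 higher by TMM, against 29.9% and 42.3% of all genes tested. By totals 7 were lower and 5 higher, against 9.70% and 70.3% of all genes. CPM here are on the library size after TMM scaling, which sets the bulk of genes equal between libraries. The factors lay between 1.47 and 1.68 for paps1-3 libraries and between 0.612 and 0.672 for wild-type libraries. Scaling by plain library totals instead raised the log2 fold change of every gene tested, with a median shift of 1.25. The median gene was at 0.37 by TMM and at 1.63 by totals, and calls are given on both scales where they part.

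The family took a larger share of all gene counts in paps1-3 pollen, and its make-up was different. The members together made up 0.509%, 0.581% and 0.566% of the counts in paps1-3 A, B and C and 0.131%, 0.147% and 0.148% in wild type, or 0.552% ± 0.0380 against 0.142% ± 0.00941 (mean ± SD, n = 3 each). Every paps1-3 library lay above every wild-type library. In wild type a single gene, SAG21 (AT4G02380), held 81.5%, 83.7% and 83.0% of the family's counts. In paps1-3 it held 25.6%, 27.1% and 23.4%, while its own share of all counts was 0.130%, 0.157% and 0.132% in paps1-3 and 0.107%, 0.123% and 0.123% in wild type. Next to it in paps1-3 stood AT4G13230, AT1G52680 and AT5G53820, each with 13.2% to 16.5% of the family's counts in every paps1-3 library and no more than 1.20% in any wild-type library. With SAG21 left out, the family's share was 0.412% ± 0.0290 for paps1-3 and 0.0245% ± 0.000670 for wild type.

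**Figure D1:**
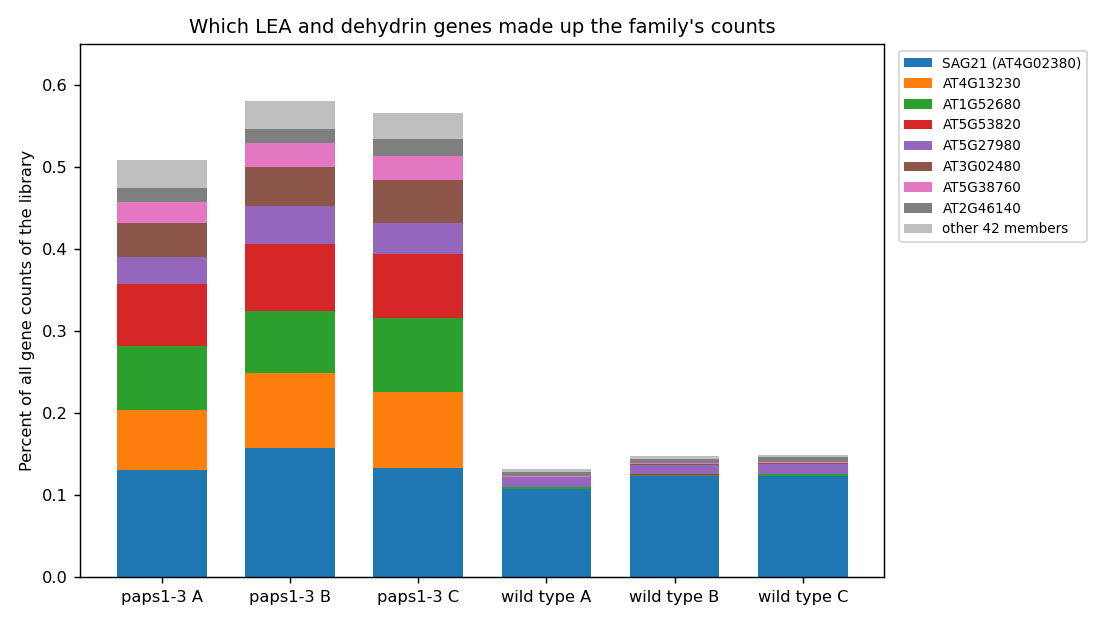
Share of all gene counts of each library, in percent, taken by the 8 members with the largest shares and by the other 42 together; each bar is 1 library and each colour 1 gene. SAG21 fills most of the bar in the 3 wild-type libraries, whereas several genes share it in the 3 paps1-3 libraries, whose bars reach 0.509% to 0.581%.

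Of the 50 members, 25 had enough counts to be tested and 25 did not. In the edgeR fit over all 14273 genes tested, 23 of the 25 were called higher in paps1-3 by TMM, where 42.3% of all genes were, and 1 was called lower, against 29.9% of all genes. By totals 24 were called higher (70.3% of all genes) and 0 lower (9.70% of all genes), RAB28 being the remaining one. The median log2 fold change of the tested members was 2.78 by TMM and 4.01 by totals, or 2.41 and 2.38 above the median of all genes on the same scale. Setting the 3 genes without a wild-type count to their lower bound left the TMM median at 2.78. A gene that reaches the count minimum only in paps1-3 had to differ, and 8 of the 25 were of that kind. Among the 17 members that reached it in wild type alone, 15 were called higher and 1 lower, where 24.5% and 47.0% of the 9007 such genes were. By totals 16 of the 17 were called higher, beside 58.3% of the 9007. Their TMM median was 1.98 and that of the 9007 genes −0.44. In 22 of the 25 every paps1-3 library had a higher CPM than every wild-type library, as in 43.9% of all genes. Since the contrast led to the choice of the family, nothing is read from these counts.

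**Figure D2:**
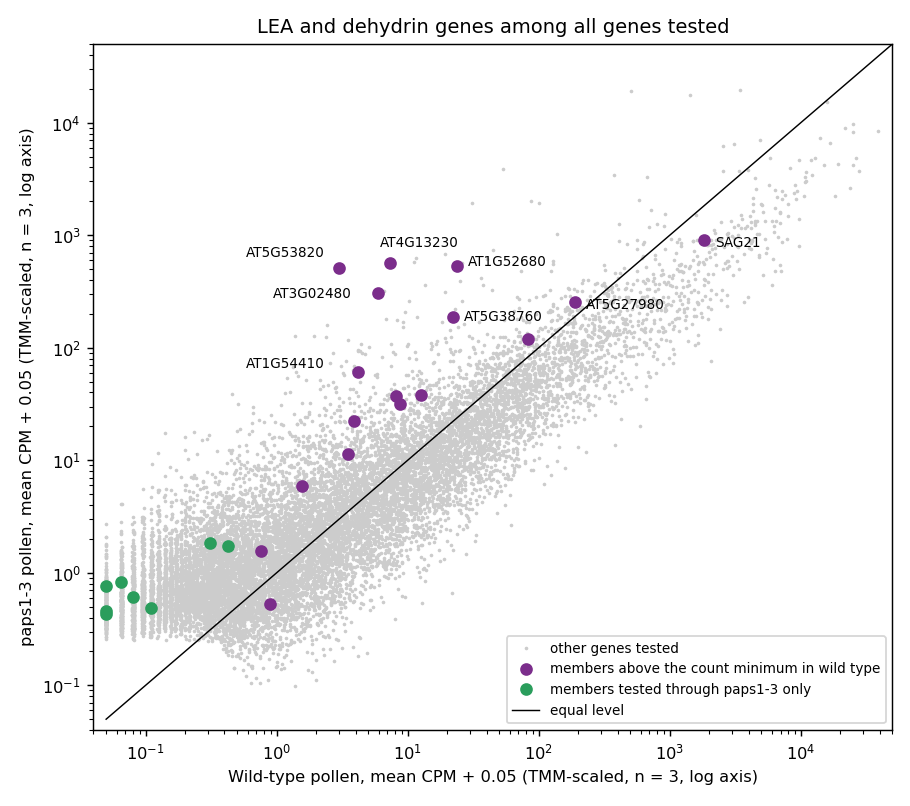
Mean CPM of each tested gene in wild-type pollen (x axis) and paps1-3 pollen (y axis), TMM-scaled, n = 3 each, with 0.05 added and both axes logarithmic; grey dots are other genes, purple dots the 17 members above the count minimum in wild type and green dots the 8 that reached it in paps1-3 only. AT5G53820, AT4G13230, AT3G02480 and AT1G52680 lie far above the line of equal level, and SAG21 lies below it on this scale.

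The largest class was LEA_4, whose proteins carry short repeated motifs and turn helical on drying. All 9 of its 17 members that were tested were called higher under both scalings, where 42.3% of all genes were. AT1G72100, AT3G15670 and AT5G44310 reached the count minimum in paps1-3 only, so they had to differ. AT5G53820 and AT4G13230 are the genes that led to the choice of the family. AT5G53820, with a very short coding sequence of 204 bases, had the largest log2 fold change among tested members with wild-type counts. The paps1-3 libraries A to C held 27582, 33465 and 15633 of its counts and the wild-type libraries 45, 74 and 78. Its level was 510.0 ± 55.8 CPM in paps1-3 and 2.96 ± 0.72 in wild type, a log2 fold change of 7.43 ± 0.19 (SE) by TMM, ranking 1 of the 9007 genes above the count minimum in wild type. It moved from place 5787 to place 200 among all genes ordered by CPM. The groups were far apart, with the lowest paps1-3 library at 446 CPM and the highest wild-type library at 3.38.

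AT3G02480, of 207 coding bases, had 15371, 19342 and 10374 counts in paps1-3 and 118, 110 and 161 in wild type, or 307 ± 53.9 against 5.85 ± 1.02 CPM (log2 fold change 5.71 ± 0.18). AT5G38760, again of 204 coding bases, started from a higher wild-type level. It had 9600, 12318 and 5840 counts against 313, 475 and 684, or 186 ± 26.4 against 22.0 ± 7.43 CPM (3.08 ± 0.20). Within wild type it varied more than its relatives, with library A lowest and C highest. These 3 genes are copies of one another at a distance. The coding sequences of AT5G53820 and AT5G38760 were identical at 78.3% of aligned positions, those of AT5G53820 and AT3G02480 at 67.0% and those of AT5G38760 and AT3G02480 at 69.5%. No stretch of 100 bases at 95% identity or more was found outside its own gene for any of the 50 member transcripts.

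AT4G13230, a longer LEA_4 gene of 363 coding bases, reached the highest level of the class. It had 27114, 37441 and 18570 counts in paps1-3 and 135, 164 and 187 in wild type, or 563 ± 108 against 7.31 ± 0.87 CPM (log2 fold change 6.27 ± 0.18). AT1G52680, a LEA-related gene that belongs to no named class, reached a similar level. It had 28541, 31517 and 17748 counts against 505, 453 and 613, or 529 ± 73.5 against 23.7 ± 3.00 CPM (4.48 ± 0.16). In both genes all 3 paps1-3 libraries were well above all wild-type libraries.

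The sequences upstream of these genes are shown because neighbours in the family that rose together differ in them. Each is the 300 bases before the annotated gene start in RefSeq's TAIR10.1, 5′ to 3′ on the gene's strand, with every ACGTG on either strand in capitals. ACGTG is the core of the abscisic acid response element, which bZIP factors of the ABF and ABI5 group bind. AT5G53820 is read from chr5:21853048-21853347 on the plus strand, AT3G02480 from chr3:511920-512219 (plus), AT5G38760 from chr5:15523873-15524172 (plus), AT4G13230 from chr4:7676809-7677108 (minus) and SAG21 from chr4:1047106-1047405 (minus).
AT5G53820: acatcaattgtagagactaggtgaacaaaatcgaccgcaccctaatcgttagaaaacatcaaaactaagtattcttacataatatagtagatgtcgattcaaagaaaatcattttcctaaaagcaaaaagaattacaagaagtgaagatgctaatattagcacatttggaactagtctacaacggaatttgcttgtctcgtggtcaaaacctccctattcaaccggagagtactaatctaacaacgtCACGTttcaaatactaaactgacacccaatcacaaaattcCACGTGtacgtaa
AT3G02480: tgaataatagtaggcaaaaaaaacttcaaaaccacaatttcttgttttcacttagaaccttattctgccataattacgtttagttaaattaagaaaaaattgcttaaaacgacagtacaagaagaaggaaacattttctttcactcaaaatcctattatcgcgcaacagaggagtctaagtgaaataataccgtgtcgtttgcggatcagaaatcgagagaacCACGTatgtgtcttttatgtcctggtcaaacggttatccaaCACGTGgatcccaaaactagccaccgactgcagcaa
AT5G38760: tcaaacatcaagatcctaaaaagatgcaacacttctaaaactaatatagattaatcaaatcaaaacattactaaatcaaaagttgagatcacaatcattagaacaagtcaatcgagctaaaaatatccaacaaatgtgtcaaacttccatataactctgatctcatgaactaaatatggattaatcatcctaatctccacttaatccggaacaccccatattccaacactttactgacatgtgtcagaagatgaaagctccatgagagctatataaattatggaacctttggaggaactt
AT4G13230: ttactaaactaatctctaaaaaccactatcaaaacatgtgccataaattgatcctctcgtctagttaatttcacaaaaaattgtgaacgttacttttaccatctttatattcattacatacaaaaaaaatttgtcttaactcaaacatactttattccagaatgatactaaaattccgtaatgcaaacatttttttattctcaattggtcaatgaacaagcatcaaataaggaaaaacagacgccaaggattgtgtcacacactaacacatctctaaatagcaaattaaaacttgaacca
SAG21: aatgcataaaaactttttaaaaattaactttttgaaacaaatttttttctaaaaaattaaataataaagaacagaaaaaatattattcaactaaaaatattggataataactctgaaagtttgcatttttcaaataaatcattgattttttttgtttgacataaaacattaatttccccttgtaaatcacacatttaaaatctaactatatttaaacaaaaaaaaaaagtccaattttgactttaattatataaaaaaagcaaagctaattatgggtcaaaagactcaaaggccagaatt

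AT5G53820 and AT3G02480 each held 3 matches, counted per strand, of which 2 lie in one palindromic CACGTG (a G-box) close to the gene start and 1 stands further upstream. AT5G38760, AT4G13230 and SAG21 held none in this window. AT5G38760 and AT4G13230 were called higher all the same. Only SAG21 and RAB28 among the tested members were not called higher by TMM, too few for the windows to be compared by call. A part of this element in the levels was not tested. Over the family, 38 of 50 windows (76.0%) held ACGTG, compared with 25.6% of the windows of 27443 protein-coding genes. The G-box, which contains ACGTG, was in 23 (46.0%, against 7.09% of all), the core of the dehydration response element CCGAC in 18 (36.0%, against 13.9%) and the RY core CATGCA of seed B3 factors in 9 (18.0%, against 10.3%). All were searched on both strands. ACGTG was in 22 of the 25 members with too few counts to test and in 16 of the 25 tested. It was in 12 of the 16 called higher by more than 4-fold by TMM, and in 5 of the 10 most abundant members of wild-type pollen. A match is a description of the letters and not of binding.

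Other LEA_4 genes had smaller changes or few counts. AT2G18340, with 2072, 1966 and 1418 counts in paps1-3 against 274, 275 and 287, was at 38.1 ± 9.05 against 12.6 ± 0.289 CPM (log2 fold change 1.59 ± 0.16), and a gene on the opposite strand overlaps it. The library kit does not keep the strand, so reads of such a pair cannot be told apart. AT4G36600 rose from 3.86 ± 0.404 to 22.1 ± 4.93 CPM (2.52 ± 0.19) and AT1G72100 from 0.373 ± 0.142 to 1.66 ± 0.284 CPM (2.14 ± 0.42). AT5G44310 had 73, 37 and 10 counts in paps1-3 and 0 in every wild-type library. Taking the 3 counts that a count of 0 allows over the group, it was at least 17.4-fold higher in paps1-3, and at least 11.5-fold without library A, where it was most abundant. AT3G15670 had 14, 37 and 9 counts against 0, 0 and 0, at least 8.71-fold higher, and at least 5.58-fold without library B.

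**Figure D3:**
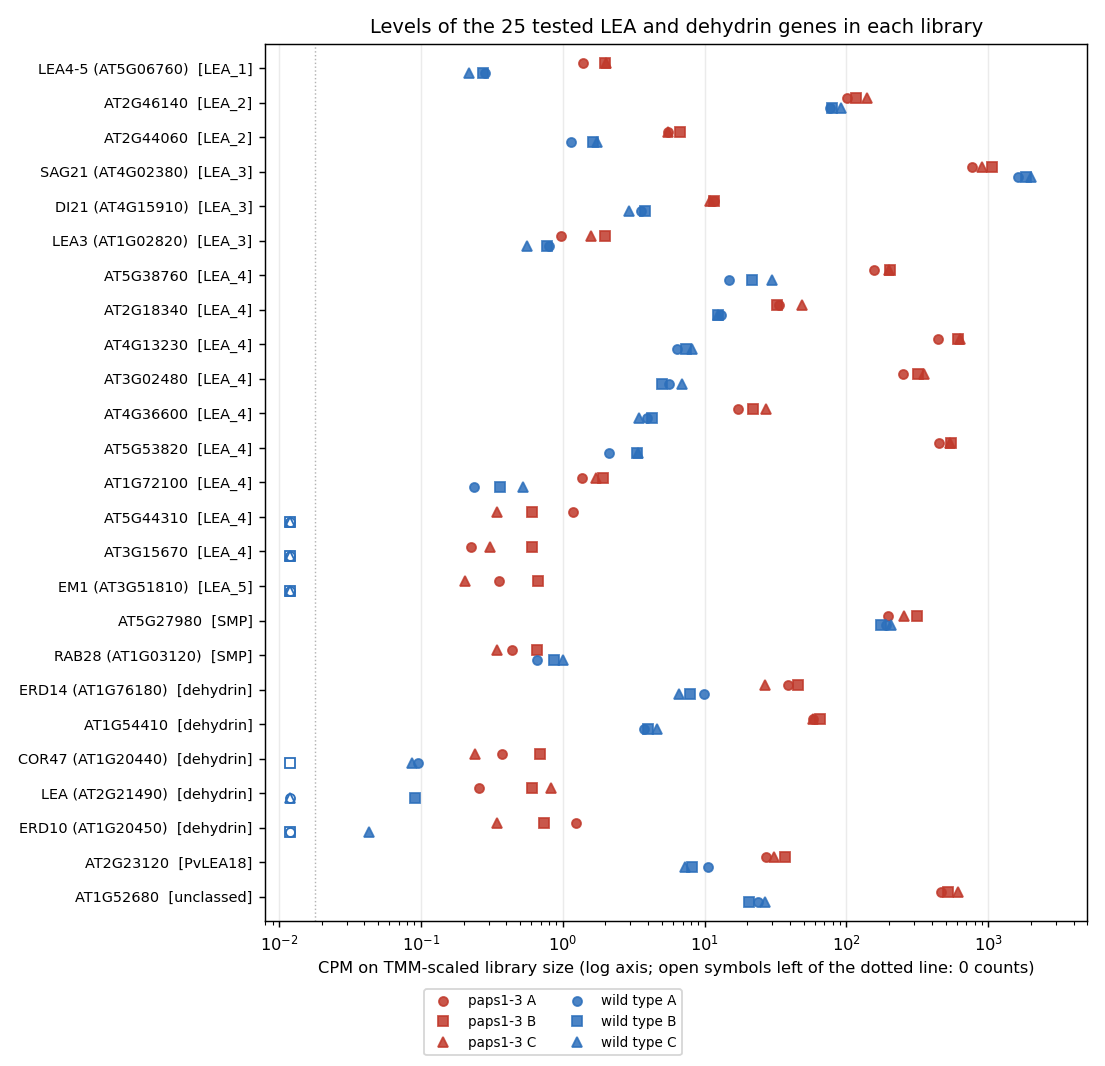
CPM of the 25 tested members in each library on a log axis (TMM-scaled), with paps1-3 in red, wild type in blue and the letters A to C as circle, square and triangle; open symbols left of the dotted line are libraries with 0 counts. The red and blue symbols stand apart for most genes, overlap for AT5G27980, and lie in the reverse order on this scale for SAG21 and, narrowly, RAB28, which totals do not show.

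SAG21, the LEA_3 protein AtLEA5, is directed to mitochondria and is induced by senescence and oxidants. It was the most abundant member in both genotypes by counts. It had 47735, 64835 and 26290 counts in paps1-3 and 34202, 40277 and 46416 in wild type. On the TMM scale it fell from 1819.9 ± 197.1 to 912 ± 146 CPM, a log2 fold change of −0.99 ± 0.14, with no overlap between the groups. By totals the order was the reverse: every paps1-3 library was above every wild-type library, and the log2 fold change was 0.25, called higher. Relative to the median of all genes tested, its TMM log2 fold change stood at −1.37. A gene annotated on the same strand overlaps it, so the assignment of some reads is uncertain. Of the other LEA_3 genes, the drought-induced DI21 (AT4G15910) had 718, 709 and 317 counts against 75, 84 and 68, or 11.4 ± 0.449 against 3.44 ± 0.444 CPM (1.73 ± 0.18). LEA3 (AT1G02820) was at 1.51 ± 0.511 against 0.713 ± 0.131 CPM (1.08 ± 0.39). Its call was lost with DESeq2 (1.06) and without paps1-3 B (0.80), paps1-3 C (0.99) or wild-type C (0.88). AT3G53770 had 4 counts, all in paps1-3 A.

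Levels per kilobase of coding sequence were led in wild type by SAG21 at 3143 ± 340.4 CPM per kb. AT5G27980 followed at 328 ± 25.9, AT2G46140 at 164 ± 15.4 and AT5G38760 at 108 ± 36.4, and AT1G52680 was at 68.6 ± 8.71. In this order each gene was above the next in all libraries, except that AT5G38760 and AT1G52680 overlapped. With this divisor AT5G53820 led in paps1-3 at 2500.2 ± 274 CPM per kb. SAG21 (1575 ± 253), AT4G13230 (1550.3 ± 298), AT1G52680 (1532 ± 213) and AT3G02480 (1483 ± 261) came next and differed from each other by less than their spread. AT5G38760 was lower at 910.5 ± 129 and AT5G27980 at 439 ± 102. Counts are per gene, and the coding part of the transcript differs between genes. AT5G53820 has 204 coding and 582 transcript bases, and SAG21 has 579 and 943. The order in paps1-3 therefore depends on the divisor, and levels per transcript length were not computed.

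The seed maturation proteins (SMP class) are otherwise known from drying embryos, and 1 of the 6 was abundant in pollen of both genotypes. AT5G27980 had 12043, 19035 and 7465 counts in paps1-3 and 3997, 3865 and 4740 in wild type, or 254 ± 58.8 against 190.0 ± 14.98 CPM. A gene on the opposite strand overlaps it. The groups overlapped on this scale, paps1-3 A lying within the wild-type range. The log2 fold change of 0.42 ± 0.15 was called by TMM, but not with DESeq2 (0.39), with no filter on low counts (0.35), or without paps1-3 B (0.23), paps1-3 C (0.36), wild-type A (0.36) or wild-type B (0.31). By totals it was 1.66. RAB28 (AT1G03120), which responds to abscisic acid in seeds, had 27, 40 and 10 counts against 14, 19 and 23 and was called under neither scaling, with −0.78 ± 0.50 by TMM and 0.46 by totals. On the TMM scale its 3 paps1-3 libraries, at 0.342 to 0.656 CPM, lay just below the wild-type libraries at 0.662 to 0.997. AT3G22490, ATECP31 (AT3G22500), AT5G53260 and AT5G53270 had between 0 and 3 counts in every library.

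**Figure D4:**
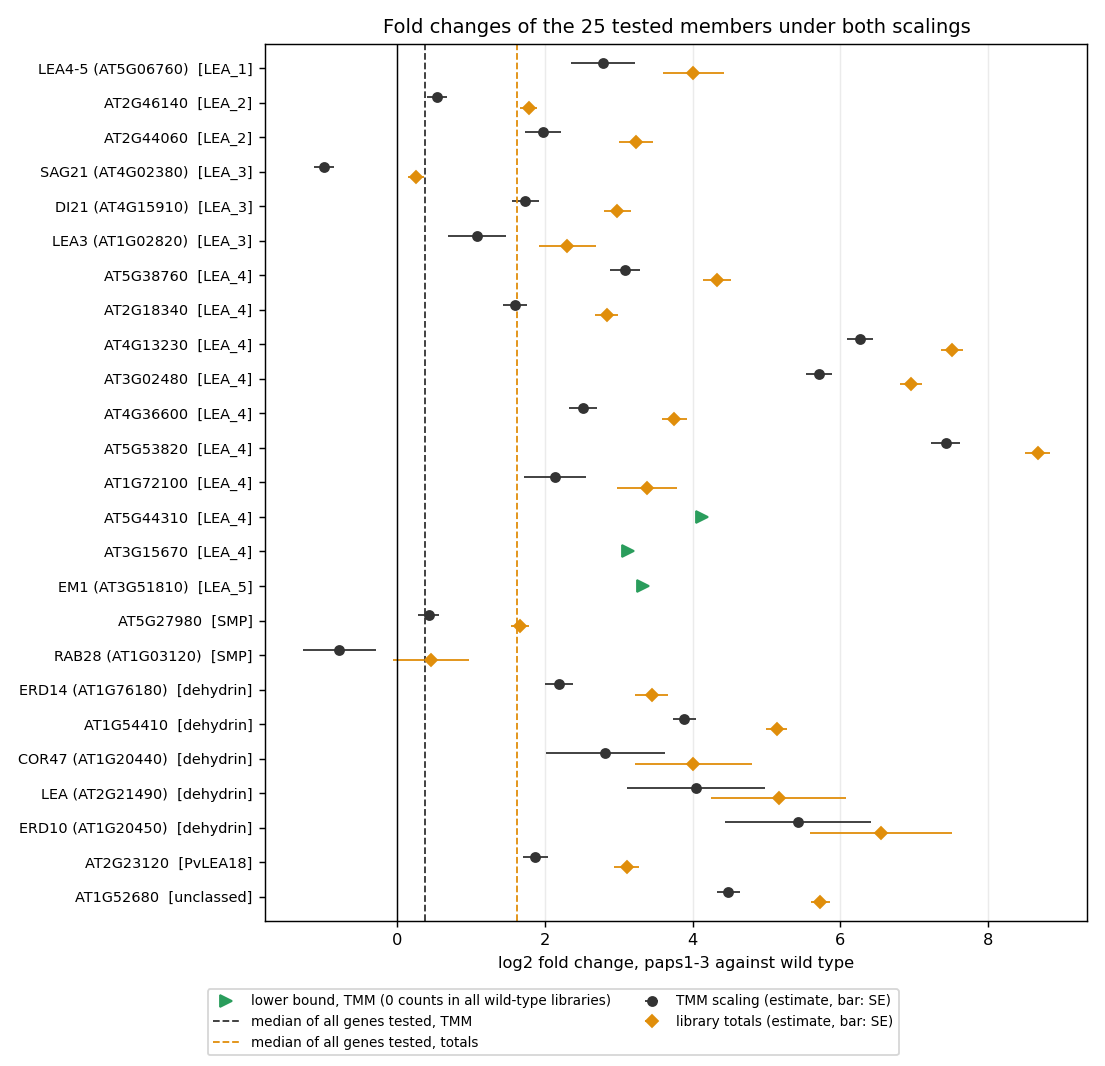
Log2 fold change of paps1-3 against wild type for the 25 tested members, by TMM (black) and by library totals (orange), bars giving the SE, with dashed lines at the median of all genes tested on each scale; green arrowheads are lower bounds for the 3 genes with 0 counts in wild type. Nearly all members lie to the right of both medians, SAG21 and RAB28 lie to the left on each scale, and AT5G53820 reaches 7.43 by TMM.

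Dehydrins bind membranes, metals and proteins through lysine-rich segments. Of the 10, 5 were tested and all 5 were called higher under both scalings, where 42.3% of all genes were. COR47, ERD10 and the dehydrin LEA reached the count minimum in paps1-3 only, so they had to differ. The most abundant was AT1G54410, the histidine-rich dehydrin HIRD11, which binds metal ions. It had 3618, 3992 and 1708 counts in paps1-3 and 79, 88 and 106 in wild type, or 60.8 ± 4.06 against 4.11 ± 0.440 CPM (log2 fold change 3.89 ± 0.16). ERD14 (AT1G76180), an acidic dehydrin with chaperone activity in vitro, had 2407, 2768 and 784 counts against 209, 175 and 153, or 37.1 ± 9.44 against 8.16 ± 1.64 CPM (2.19 ± 0.19). Both were higher in all paps1-3 libraries than in any wild-type library.

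The other dehydrins had few counts in both genotypes. ERD10 (AT1G20450) had 77, 45 and 10 counts in paps1-3 and 0, 0 and 1 in wild type. The ratio of the summed counts per TMM-scaled library was 57.5, with a 95% exact interval of 10.1 to 2288 that covers counting error only. Without wild-type C, which held that 1 count, it was at least 12.5-fold higher, and leaving out wild-type B gave the lowest ratio otherwise, 38.4. Its neighbour COR47 (AT1G20440), a cold-induced relative, had 23, 42 and 7 counts against 2, 0 and 2 (log2 fold change 2.81 ± 0.81), and without wild-type B it was no longer called (2.19). The dehydrin LEA (AT2G21490) had 16, 37 and 24 counts against 0, 2 and 0, a ratio of 16.8 with an interval of 4.49 to 141. Without wild-type B, which held both counts, it was at least 7.46-fold higher, and without wild-type C the ratio was 10.9. The best-known stress dehydrins hardly appeared: RAB18 (AT5G66400) had 2, 0 and 1 counts in paps1-3, LTI30 (AT3G50970, also XERO2) 1, 2 and 0, and AT4G39130 2, 1 and 0, with 0 in wild type for each. XERO1 (AT3G50980) had 9, 1 and 0 and AT4G38410 had 13, 0 and 0, again with 0 in wild type and most of them in paps1-3 A.

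The remaining classes had 0 to 2 tested members each. LEA_2 proteins are folded, unlike most of the family. Of these, AT2G46140 had 6212, 7098 and 4077 counts in paps1-3 and 1620, 1737 and 2099 in wild type, or 119 ± 19.6 against 82.2 ± 7.71 CPM (log2 fold change 0.53 ± 0.14, by totals 1.78). AT2G44060 was at 5.91 ± 0.707 against 1.502 ± 0.321 CPM (1.98 ± 0.24), whereas LEA14 (AT1G01470) had 3, 1 and 1 counts against 0, 5 and 5. LEA4-5 (AT5G06760), a LEA_1 protein that guards enzymes during water loss, had 86, 120 and 59 counts against 6, 6 and 5, or 1.79 ± 0.349 against 0.258 ± 0.0359 CPM (2.78 ± 0.43). The other LEA_1 genes, AtLEA4-1 (AT1G32560) and LEA18 (AT2G35300), had at most 6 counts in a library.

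AT2G23120, of the PvLEA18 class, had 1675, 2255 and 901 counts against 225, 180 and 168, or 31.6 ± 5.01 against 8.70 ± 1.74 CPM (1.87 ± 0.17), and a gene on the opposite strand overlaps it. The EM genes encode the most hydrophilic proteins of dry seeds. EM1 (AT3G51810) had 22, 41 and 6 counts in paps1-3 and 0 in all wild-type libraries, at least 10.02-fold higher, and at least 6.79-fold without paps1-3 B. EM6 (AT2G40170, listed as GEA6) had 2, 1 and 0 against 0. Of the AtM genes, M17 (AT2G41260) had 0 counts in all 6 libraries and M10 (AT2G41280) had 1, in wild-type B.

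The 25 members below the count minimum had more counts in paps1-3 than in wild type, as did scarce genes in general. At least 1 count was found for 18, 17 and 12 of them in paps1-3 A, B and C and for 3, 4 and 5 in wild type, or 72%, 68% and 48% against 12%, 16% and 20%. Of all 19329 genes below the minimum, 83.1%, 68.2% and 53.4% had a count in paps1-3 A, B and C and 31.8%, 19.5% and 26.1% in wild type. Their summed counts were 157, 101 and 27 against 4, 8 and 13, or 2.54, 1.66 and 0.924 CPM in paps1-3 and 0.189, 0.363 and 0.564 in wild type. The groups did not overlap, and paps1-3 A, the library with counts in the most genes (30343, against 27453 in B and 24587 in C, and 16869 to 19668 in wild type), was the highest. Of these 25, 16 had 0 counts in all wild-type libraries, and 10 had a count in every paps1-3 library. With no filter on low counts, 22.0% of 31633 genes were called higher, and 10.7% of the 17360 among them that lie below the count minimum. Of the 24 members in that range 4 were called higher: the LEA_4 genes LEA7 (AT1G52690), AT3G17520, AT3G53040 and AT4G21020. Of these, AT3G17520 had 23 counts in paps1-3 A and 1 each in B and C. The tapetum gene GRP17 (AT5G07530) was likewise concentrated there, with 179, 21 and 5 counts in paps1-3 and 3, 1 and 4 in wild type, and its part in these counts was not tested. The others not named so far, the embryo protein gene ECP63 (AT2G36640), AT2G42560, AT2G03740, AT2G03850 and AT2G23110, had at most 29 counts in any library.

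Position and gene structure were compared as features that did not enter the choice. There are 7 pairs of members with no protein-coding gene between them. In 2 of these pairs the neighbours differed widely in level. AT1G52680 had 17748 to 31517 counts in paps1-3, whereas LEA7, next to it on the opposite strand, had 5 to 16. AT2G23120 had 901 to 2255 counts, whereas AT2G23110 on the same strand had 0 to 7. COR47 and ERD10 were both low and both called higher, and both members of the pairs AT3G22490 and ATECP31, AT5G53260 and AT5G53270, LTI30 and XERO1, and M17 and M10 were too scarce to test. A transcript of 3 exons is annotated for 11 of the 50. The 6 members that ranked 2 to 7 by CPM in paps1-3 after SAG21 were all among these 11, namely AT4G13230, AT1G52680, AT5G53820, AT3G02480, AT5G27980 and AT5G38760; this was seen after the levels were known.

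Among 4 LEA genes that the member list leaves out, 3 were tested and called higher under both scalings, where 42.3% of all genes were. UNE15 (AT4G13560), a LEA_4 gene named for a defect in fertilisation, rose from 73.3 ± 13.3 to 478 ± 93.3 CPM (log2 fold change 2.71 ± 0.16), AT2G33690 from 0.418 ± 0.166 to 6.11 ± 1.35 CPM (3.84 ± 0.32) and the cold-regulated COR15B (AT2G42530) from 0.0592 ± 0.0513 to 0.665 ± 0.283 CPM. Of 12 other genes of desiccation and cold, 5 were tested and 5 called higher under both scalings, beside the same 42.3%. AT1G47980, described as a desiccation-like protein, rose from 0.406 ± 0.104 to 38.5 ± 4.63 CPM, and LTI78 (AT5G52310, also RD29A) from 0.204 ± 0.278 to 1.57 ± 1.03 CPM with most of its counts in paps1-3 A. KIN2 (AT5G15970), a cold-induced gene, had 97, 97 and 33 counts against 0 in wild type. All 5 tested genes of desiccation and cold reached the count minimum in every library for paps1-3 only. They are AT1G47980 (8, 7 and 12 wild-type counts), LTI78 (11, 2 and 0), KIN2, GolS1 (2, 3 and 4) and SIP1 (9, 3 and 7). Of the LEA genes outside the list, AT2G33690 (5, 10 and 13) and COR15B (0, 2 and 2) were of that kind too. Such genes had to differ.

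Genes that control LEA expression in seeds and under stress had calls in both directions, at shares near those of all genes (42.3% higher and 29.9% lower by TMM). Of 23 transcription factors 15 were tested, and 7 were called higher and 3 lower by TMM (11 and 1 by totals), with a median log2 fold change of 0.59 beside 0.37 for all genes. Those called higher under both scalings were scarce factors for the most part, named here after their values were seen. They include the seed regulators ABI3 (AT3G24650), at 1.39 ± 0.629 against 0.604 ± 0.0125 CPM (log2 fold change 1.22 ± 0.42), and FUS3 (AT3G26790), with 78, 17 and 9 counts against 0. The bZIP factors ABF1 (AT1G49720; 3.33 ± 0.86), ABF3 (AT4G34000; 1.44 ± 0.61), ABF4 (AT3G19290; 3.17 ± 0.49) and AREB3 (AT3G56850; 0.59 ± 0.23), and the cold factor ICE1 (AT3G26744; 0.76 ± 0.18), are the others. FUS3, ABF1, ABF3 and ABF4 reached the count minimum in paps1-3 only, so they had to differ. In the other direction, EEL (AT2G41070) was called lower under both scalings, at −2.55 ± 0.29 by TMM and −1.32 by totals. DPBF2 (AT3G44460) was called lower by TMM (−0.58 ± 0.25) and higher by totals (0.65). ABI5 (AT2G36270; −0.66 ± 0.53) was called under neither. The 3 most abundant factors were not among those called higher under both scalings. BZIP25 (AT3G54620), which acts with ABI3 on seed genes, was at 27.0 ± 2.47 against 75.1 ± 6.70 CPM (log2 fold change −1.47 ± 0.13), and it was not called by totals. BZO2H1 (AT4G02640, also bZIP10) at 34.4 ± 2.94 against 38.2 ± 6.52 CPM and the drought factor DREB2A (AT5G05410) at 18.6 ± 4.91 against 15.1 ± 0.982 CPM were not called by TMM and were called higher by totals. Of 20 abscisic acid receptors, PP2C phosphatases and SnRK2 kinases 10 were tested, and 5 were called higher and 4 lower (7 and 1 by totals), with a median of 0.24. Of those called higher, PYL1 (AT5G46790) and SNRK2.3 (AT5G66880) reached the count minimum in paps1-3 only, so they had to differ. The phosphatase HAB1 (AT1G72770) rose from 37.0 ± 1.52 to 90.6 ± 8.58 CPM (1.30 ± 0.13) and ABI1 (AT4G26080) from 27.9 ± 2.53 to 42.2 ± 6.85 CPM (0.60 ± 0.14), while PP2CA (AT3G11410) fell from 56.6 ± 7.81 to 17.4 ± 3.15 CPM (−1.70 ± 0.15).

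Markers of other tissues were compared beside the LEA genes. Over 11 seed storage and oil body genes, the summed level was 1.30 to 1.80 CPM in paps1-3 and 0.273 to 0.379 in wild type. Of the 11, 7 were at 0 in all wild-type libraries and SESA3 (AT4G27160) was at 0 throughout. The 2 that were tested were both called higher, beside 42.3% of all genes by TMM. These were SESA2 (AT4G27150), with 0 wild-type counts, and OLEO1 (AT4G25140), with 0, 4 and 0. Both reached the count minimum in paps1-3 only, so they had to differ. The 8 markers of green tissue summed to 1.20 to 1.89 against 0.284 to 0.564 CPM, with 3 at 0 in wild type. The 13 tapetum markers summed to 7.31, 2.99 and 2.43 CPM in paps1-3 A, B and C and to 2.89 to 3.41 in wild type on the TMM scale. By totals they summed to 12.3, 4.42 and 3.57 against 1.91 to 2.29, every paps1-3 library being higher. In this list 4 genes were tested, and 2 were called higher and 2 lower by TMM, and 2 and 0 by totals. Of all genes tested, 42.3% and 29.9% were by TMM, and 70.3% and 9.70% by totals. MYB80 (AT5G56110) and LAP6 (AT1G02050), the 2 called higher, reached the count minimum in paps1-3 only, so they had to differ. MS2 (AT3G11980), called lower by TMM, reached it in every library for wild type only. Of the 13 tapetum genes 3 were at 0 in wild type and A9 (AT5G07230) in all libraries. The 8 sperm markers, which belong to pollen, summed to 97.8 to 127 CPM against 334 to 381, and by totals to 144 to 199 against 212 to 253. The seed and green tissue sums were higher in paps1-3 on both scales and the tapetum sum by totals, and their part in the low-level members was not tested. AT5G53820 was at 446 to 549 CPM in the paps1-3 libraries, and the part of other tissues in its level was likewise not tested.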

How the data were processed

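RNA of sorted pollen was amplified with an Ovation RNA-seq kit and read in pairs of 101 and 99 bases, per the labels' protocols. The authors deposited raw counts per gene for each of 6 libraries; TopHat2, HTSeq and the TAIR10 genome are named in the submitters' processing notes, their versions not being given in the sources used here. Counts were analysed in R 4.3.3 with edgeR 4.0.16: TMM scaling, filterByExpr (minimum count 10, minimum total 15; 14273 of 33602 genes), robust quasi-likelihood tests of paps1-3 against wild type, and Benjamini-Hochberg adjustment over all genes, called at 0.05. Fits were tested on simulated data. Intervals and floors (3 counts over the group) cover counting error only. Upstream windows, exons and overlaps were read from RefSeq's TAIR10.1, with which all 50 members matched. Named genes were the 6 members with the highest mean CPM, the 8 with the largest absolute log2 fold change and those called differently by the 2 scalings; other members were described by class. From each regulator or stress list up to 3 genes with the highest mean CPM were named, others after their values were seen. Members and gene lists were chosen with earlier results of these data known. Alternatives were library totals, DESeq2 1.42.0, other filters, a replicate block and leaving out each library.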

Additional observations from a re-analysis of the deposited data

How the results depend on the processing

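By TMM 23 members were called higher and 1 lower, where 42.3% and 29.9% of all genes tested were. By library totals 24 were higher (70.3% of all genes) and 0 lower (9.70% of all genes). The log2 fold changes of SAG21 (0.25) and RAB28 (0.46) turned sign, while the other 23 kept their direction and their side of the threshold. DESeq2 called 23 higher, beside 6117 of 31633 genes, and 21 of the 23 were shared with edgeR. LEA3 and AT5G27980 were lost, and LEA7 and AT4G21020, not tested by edgeR, were added. No filter on low counts gave 26, beside 22.0% of 31633 genes. A filter of 1 CPM in 3 libraries gave 17, since it left 7 of the 25 tested members out, beside 4269 of 10100 genes. Leaving out single libraries gave 20 to 24 higher and 1 lower. Of the 14029 to 16629 genes then tested, 5636 to 6426 were called higher and 4073 to 4287 lower. The family's share of counts then ranged from 0.537% to 0.573% for paps1-3 and from 0.139% to 0.148% for wild type. It was 0.412% and 0.0245% without SAG21, and 0.571% and 0.142% without organelle genes in the denominator. Libraries of the same letter deviated together with correlations of 0.26, 0.08 and 0.09, beside −0.17 to 0.10 for different letters. The labels do not say that the letters pair libraries, so they were not taken as pairs. With the letter as a replicate block 23 were higher and 1 lower, beside 6116 and 4426 of 14273 genes. Depth limits the members with few counts most.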
